A study of Mus musculus with 5 samples.

Results

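The genes described here carry the mouse symbol Zfp followed by a number, most of which encode zinc finger proteins, and were chosen by their read counts, of at least 100 in every one of the 5 neural tube samples. The rule found 255 members among 340 such symbols and 23284 genes in all. Because it uses the read counts themselves, the levels of the members are a description, and a gene whose reads dropped below 100 in an EpoR-null embryo could not be a member. Polyadenylated RNA was sequenced from the neural tubes, the embryonic precursor of brain and spinal cord, of 2 embryos with the erythropoietin receptor genotype EpoR -/- (EpoR-null), 2 embryos with EpoR +/+ (wild type) and 1 embryo with EpoR +/- (heterozygote). Wild type and heterozygous littermates were pooled as 3 controls; their age is E8.5 in the labels but E9.0 in the methods of the study, and no further treatment or allele is named. The genotype is that of the whole embryo and not of the neural tube alone. Nothing in the labels says which embryos shared a litter, and p values measure the spread among these 5 samples only.

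Classical zinc finger proteins bind DNA through repeated C2H2 fingers, loops in which cysteine and histidine residues hold a zinc ion, and the order of the fingers sets the sequence that is read. Many also carry a KRAB box, a domain that recruits the corepressor TRIM28 (also called KAP1), the histone methyltransferase SETDB1 and heterochromatin protein HP1, and these proteins silence retroelements and protect imprints in the early embryo. KRAB zinc finger genes have multiplied by tandem duplication and lie in clusters, where neighbouring genes can share near-identical stretches. Other Zfp symbols name proteins with few fingers that act on RNA, ribosomes or the ubiquitin system.

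The samples held 19316126 to 41169218 reads on genes, and the members took 1.11%, 1.079% and 1.116% of these in wild type 1, wild type 2 and the heterozygote, against 1.002% in EpoR-null 1 and 0.8777% in EpoR-null 2. The receptor gene Epor stood at 2.39 and 1.65 CPM (reads scaled to a common library size) in wild type and at 0.362 and 0.625 CPM in EpoR-null, and the library labelled heterozygote, with 11 reads and 0.478 CPM (95% Poisson interval 0.239 to 0.855, counting error only), lay between the 2 EpoR-null values. That library also had the lowest summed level of every non-neural marker list. Primitive erythroid markers (6 genes) summed to 43.88 CPM against 599.8 to 1686 in the others, and endothelial markers (6 genes) to 11.83 against 124.9 to 274.2. Neural crest markers summed to 32.22 CPM against 95.89 to 148.8. Paraxial mesoderm and somite markers summed to 8.291 against 29.9 to 78.25, and surface ectoderm markers to 7.773 against 19.85 to 35.42. Neural tube progenitor markers (Sox2, Pax6, Nes and 5 others) summed to 1625 to 2222 CPM in all 5 samples. The lowest sum was in EpoR-null 2 and the highest in the heterozygote. Of the 8, 1 gene, Msi1, passed the test as lower in EpoR-null. Newborn neuron markers summed to 938.5 CPM in EpoR-null 1 and to 225.4 CPM in EpoR-null 2, with 303.3 to 499.3 CPM in controls, and none of the 6 passed. By Xist and the Y-linked Ddx3y, EpoR-null 2 and the heterozygote were female and the other 3 embryos male. The part of these differences in the results below was not tested, and in dissected tissue fewer cells of a type and less RNA per cell cannot be told apart.

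The 255 members differed widely in level. Their mean over the 5 samples ran from 4.86 to 365 CPM, with a median of 23.6 CPM. Zfp207, a spindle assembly protein also named BuGZ, was the most abundant at 366 and 360 CPM in wild type 1 and 2, 368 CPM in the heterozygote, and 345 and 388 CPM in EpoR-null 1 and 2. Zfp106, Zfp664, Zfp706 and Zfp422 followed with means of 340, 301, 260 and 236 CPM. Divided by the length of the longest annotated transcript, Zfp207 still led with 111 CPM per kb, Zfp422 and Zfp664 came next at 74.1 and 73.5 CPM per kb, and Zfp106, whose transcript has 9085 bases, fell back to 37.5 CPM per kb. The median member had 10 finger matches in the longest reading frame among its protein-coding transcripts, and the highest number was 36. Of the 253 members with a reading frame, 121 matched a KRAB box pattern and 132 did not.

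The question for these genes was whether loss of EpoR changed them, together or singly. By edgeR's exact test at p < 0.001 and FDR < 0.05 over all 12703 genes tested, 12 of the 255 members (4.71%) were lower in EpoR-null and 0 were higher. The same test called 3.84% of all genes tested lower and 0.929% higher, and 4.45% lower and 1.16% higher among the 9949 genes that reached 100 reads in every sample, so the members' share of lower calls was near the background. At an unadjusted p under 0.05 there were 36 lower and 7 higher members, and at FDR < 0.05 alone there were 15 lower and 0 higher. Shares over all genes at these cuts were not counted, here or below. Such counts therefore describe the members without a background and do not set them apart from other genes. Both EpoR-null embryos lay below every control in 73 members (28.6%) and above every control in 24 (9.41%). Over all genes tested the shares were 22.1% below and 21.2% above, and over genes with the same read minimum 25.0% and 22.6%. The median log2 fold change of the members was -0.09 (range -0.91 to 0.63), with 164 of 255 (64.3%) under 0, beside a median of 0.06 over all genes tested and 0.03 over genes with the same minimum. Without EpoR-null 1 the members' median was -0.18, beside 0.03 over genes with the same minimum. Without EpoR-null 2 these medians were -0.08 and -0.03.

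The count of 12 rested on the test and on single libraries. The quasi-likelihood F-test of edgeR called 0 members (45 lower and 8 higher at an unadjusted p under 0.05, lowest FDR 0.0590), as it called 0 of all 12703 genes, and DESeq2 called 20 members lower (7.84%, beside 5.93% of all genes). The exact test called 0 without wild type 1 (22 lower at an unadjusted p under 0.05; 0.881% of all genes called), 5 without wild type 2 (1.96%, beside 2.23%), 4 without the heterozygote (1.57%, beside 1.89%) and 31, with 2 higher, without EpoR-null 1 (12.2%, beside 10.2%), so the members' count moved with that over all genes.

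**Figure D1:**
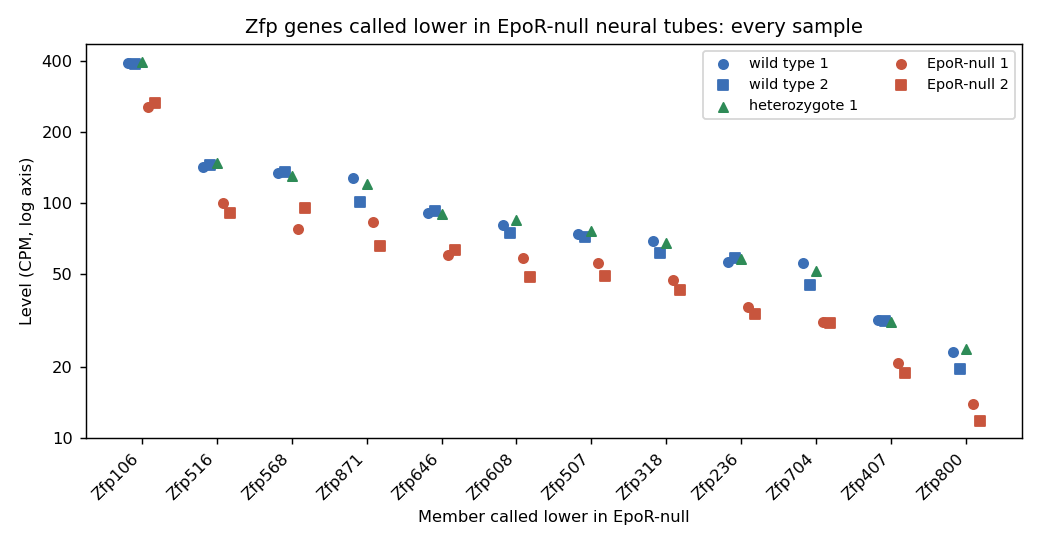
Level of the 12 members called lower in EpoR-null neural tubes (CPM, log axis), ordered by their level in wild type 1, with 1 point per sample: blue for wild type, green for the heterozygote, red for EpoR-null. In each gene both red points lie below the other 3, which selection by the test favours, and Zfp106 spans 255 to 398 CPM.

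Among the called members, Zfp800 had the largest difference, with 23.3, 19.7 and 23.9 CPM in wild type 1, wild type 2 and the heterozygote and 13.9 and 11.9 CPM in EpoR-null 1 and 2 (log2 fold change -0.79, SE 0.23, FDR 0.0195 by edgeR's exact test). It lies on chromosome 6 (28239927 to 28398005, minus strand, GRCm38). Zfp236, a protein with 30 finger matches, was at 55.8, 58.02 and 57.8 CPM in the controls and at 36.2 and 33.5 CPM in EpoR-null (-0.72, SE 0.15, FDR 0.000296). Zfp704 was at 55.8, 44.7 and 51.6 CPM in the controls and at 31.1 and 30.9 CPM in EpoR-null (-0.71, SE 0.18, FDR 0.00336). In these genes the EpoR-null embryos were close to each other and the groups did not overlap, which a call by this test favours.

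Promoters were searched for the core of the NRF1 motif, GCGCATGC on either strand (reverse GCATGCGC; the 2 overlap in the palindrome-like full site), because NRF1 motifs are among those the study examined. RefSeq promoter windows (GRCm38.p6, 250 bases before to 50 after the start) were found for 207 members, and 15 of them (7.25%) held the core. This share was 3.05% of 27025 genes and 7.06% of 7928 genes with the same read minimum. Windows were found for 5 of the 12 called members, and Zfp800 was the 1 that held the core. Its window and those of the 2 next members by log2 fold change that held the core, Zfp329 (-0.60) and Zfp334 (-0.35), are printed from 250 bases before to 30 after the start, with the core and its overlapping reverse in capitals; they lie on the minus strand at chr6:28261895-28262174, chr7:12818831-12819110 and chr2:165388230-165388509. A match describes the letters of the window and not a site in use.
Zfp800: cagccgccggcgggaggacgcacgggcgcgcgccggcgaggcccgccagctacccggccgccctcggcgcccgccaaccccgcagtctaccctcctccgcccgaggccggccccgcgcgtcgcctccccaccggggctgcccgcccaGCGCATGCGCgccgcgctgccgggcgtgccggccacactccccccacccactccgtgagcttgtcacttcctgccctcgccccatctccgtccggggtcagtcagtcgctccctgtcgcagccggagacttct
Zfp329: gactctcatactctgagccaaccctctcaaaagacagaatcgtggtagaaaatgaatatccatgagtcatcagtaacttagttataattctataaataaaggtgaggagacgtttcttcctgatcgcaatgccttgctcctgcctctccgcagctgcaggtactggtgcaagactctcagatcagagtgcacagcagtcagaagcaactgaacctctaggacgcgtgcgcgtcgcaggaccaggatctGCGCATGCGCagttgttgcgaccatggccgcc
Zfp334: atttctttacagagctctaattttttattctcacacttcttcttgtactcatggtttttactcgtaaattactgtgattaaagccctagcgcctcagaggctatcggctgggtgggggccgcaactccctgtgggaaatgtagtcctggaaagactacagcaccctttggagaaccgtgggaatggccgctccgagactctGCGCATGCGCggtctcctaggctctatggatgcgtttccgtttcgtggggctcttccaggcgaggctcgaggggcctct

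Zfp106, an RNA-binding protein needed for the maintenance of motor neurons, was the most abundant of the called members. Its controls stood at 393, 389 and 398 CPM and its EpoR-null embryos at 255 and 267 CPM (-0.59, SE 0.13, FDR 0.000785). Zfp516, a factor that promotes brown fat genes, had 142, 144 and 147 CPM in controls and 100 and 90.6 CPM in EpoR-null (-0.60, SE 0.13, FDR 0.000581). Zfp608, which lowers Rag gene expression in thymocytes, had 80.5, 74.8 and 84.2 CPM in controls and 58.3 and 48.3 CPM in EpoR-null (-0.58, SE 0.16, FDR 0.00912). Its relative Zfp609, a partner of the cohesin loader NIPBL in cortical progenitors, had 136, 119 and 137 CPM in controls and 100.5 and 67.0 CPM in EpoR-null, and by edgeR's exact test its FDR was 0.0483 and its p 0.00347, above the limit.

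Zfp646 (90.3, 92.5 and 90.1 CPM in controls, 60.2 and 63.1 CPM in EpoR-null) and Zfp871 (127, 100.7 and 120 CPM in controls, 83.3 and 65.3 CPM in EpoR-null) changed by -0.56 (SE 0.13) and -0.64 (SE 0.19) on the log2 scale. Zfp318, known for the splicing of immunoglobulin D in B cells, had 68.8, 61.1 and 67.2 CPM in controls and 47.0 and 42.5 CPM in EpoR-null. Zfp507 had 73.4, 71.6 and 76.2 CPM in controls and 55.8 and 49.0 CPM in EpoR-null, the smallest called change at -0.49 (SE 0.15). These 2 and the neural genes Zfp407 and Zfp568, described with their list, complete the 12. EpoR-null 2 was the lower of the null embryos in 9 of the 12, and EpoR-null 1 in Zfp568, Zfp106 and Zfp646. Over the 12, the log2 distance between the highest and the lowest control was at most 0.336, and a call favours genes with a small distance.

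Just inside the read minimum, the lowest counts were 100 reads in Zfp473 and in Zfp709 and 105 reads in Zfp365, and just outside they were 98, 96 and 95 reads in Zfp784, Zfp619 and Zfp712. Of the 85 symbols below the minimum, 61 were tested and 2 of these were called lower. Zfp618 had 428 and 675 reads in wild type, 443 in the heterozygote and 130 and 82 in EpoR-null (-1.91, SE 0.41, FDR 0.000799), and Zfp109 had 182, 348 and 181 reads in the controls and 62 and 80 in EpoR-null (-1.41, SE 0.31, FDR 0.000939). Both fell further than any called member and were left out by their low reads in EpoR-null. Zfp536, a neural development gene with 181, 264 and 214 reads in the controls, had 108 reads in EpoR-null 1 and 18 in EpoR-null 2 and was not called (FDR 0.432).

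Transcript length moved with the result. Of the 12 called members, 11 had a longest annotated transcript over 6000 bases, as did 51 members in all. Among these 51, both EpoR-null embryos lay below every control in 35 (68.6%) and the median log2 fold change was -0.38. Other genes with at least 100 reads and a transcript of this length numbered 1544, of which 21.2% were called lower, beside 21.6% of the 51 members, with both EpoR-null embryos below in 64.8% and a median of -0.43. Between 4000 and 6000 bases 1 of 66 members (1.52%) was called, Zfp800, beside 3.28% of 2467 other genes. Of the 123 members between 2000 and 4000 bases none was, beside 0.409% of 3910 other genes, and the median was 0.00 beside 0.10.

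The 15 members with transcripts of up to 2000 bases had a median log2 fold change of 0.15, and 6 of them had both EpoR-null embryos above every control, against 60.7% and a median of 0.37 in the 1695 other genes of that length. Zfp580, with 1096 bases, stood at 7.26, 7.73 and 7.30 CPM in controls and 10.2 and 12.1 CPM in EpoR-null (log2 fold change 0.59, SE 0.28, FDR 0.193 by edgeR's exact test). Members of all lengths together were a little longer than other genes with the same read minimum (medians 3775 and 3574 bases) and poorer in G and C (45.9% and 49.6%).

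With offsets that removed each sample's trend on transcript length and GC content, the likelihood-ratio test of edgeR called 2 members (0.784%, beside 1.17% of all genes in that fit), where it had called 12 without offsets (4.71%, beside 3.98%), and the median of the members was -0.04. Neither of the 2 was among the 12. Zfp146 had 111, 112 and 113 CPM in controls and 90.2 and 83.6 CPM in EpoR-null, with a log2 fold change of -0.58 and FDR 0.00731 under the offsets and -0.36 (FDR 0.0609) by edgeR's exact test. Zfp526, on chromosome 7 (25221425 to 25227507, plus strand, GRCm38), had 11.8, 11.97 and 10.5 CPM in controls and 6.41 and 5.73 CPM in EpoR-null, with -1.02 and FDR 0.0164 under the offsets and -0.91 (SE 0.28, FDR 0.0260) in the exact test, where its p of 0.00139 missed the limit. Of the 12 called members 11 stayed below 0 under the offsets, with values from -0.63 in Zfp800 to 0.07 in Zfp318, and the lowest FDR among them was 0.145. The 2 symbols called below the read minimum, Zfp618 and Zfp109, were called under the offsets too, each with FDR 0.000659 by that likelihood-ratio test. Offsets of this kind remove any change that follows length, whatever its source, and these sources cannot be told apart here.

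**Figure D2:**
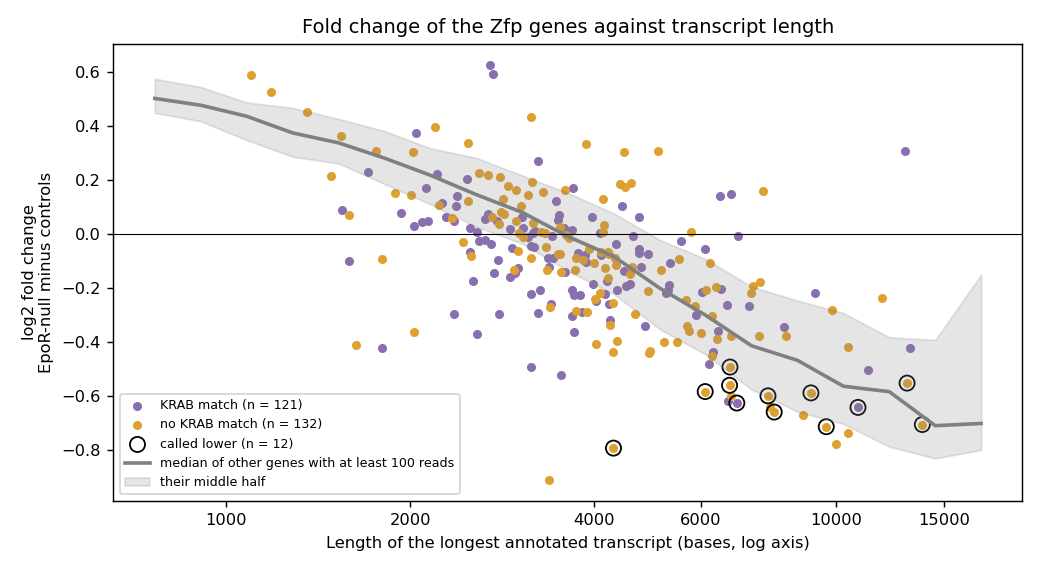
Log2 fold change (EpoR-null minus controls) of 253 members against the length of their longest annotated transcript (log axis), purple with and orange without a KRAB match, rings for the 12 called lower. The grey line and band, the median and interquartile range of other genes with at least 100 reads, slope down from short to long transcripts, and 11 of the 12 rings lie beyond 6000 bases.

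The 121 members with a KRAB match had 2 lower calls (1.65%; Zfp568 and Zfp871), a median log2 fold change of -0.08, and both EpoR-null embryos below every control in 30 (24.8%) and above in 7 (5.79%). Their median difference in log2 CPM from the mean of the controls was -0.01 in EpoR-null 1 and -0.22 in EpoR-null 2. The 132 without a match had 10 lower calls (7.58%), a median of -0.10, both embryos below in 42 (31.8%) and above in 17 (12.9%), and embryo medians of -0.11 and -0.12. Genes with the same read minimum had 4.45% lower calls, 25.0% below and 22.6% above. Most of the calls of either group were in long transcripts: over 6000 bases 2 of 19 KRAB members and 9 of 31 others were called, and up to 6000 bases 0 of 102 and 1 of 101. Within sex, EpoR-null 1 against the male wild types and EpoR-null 2 against the female heterozygote gave medians of 0.01 and -0.28 for KRAB members and -0.11 and -0.10 for the others, each with 1 embryo on the null side and no test.

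Base composition and length differed between the same groups. KRAB members had a median of 43.2% G and C and 3574 bases, and the others 48.8% and 4102 bases. The 74 members with up to 42% G and C had medians of -0.03 in EpoR-null 1 and -0.37 in EpoR-null 2, and 1150 other genes in that range -0.06 and -0.22. Above 50% the 81 members had -0.15 and 0.09, and 4569 other genes -0.01 and 0.20. EpoR-null 2 had the lower median in the G and C poor range and the higher one above 50%, in the members and in the other genes.

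By number of fingers, the 42 members with up to 4 matches, the 75 with 5 to 9, the 86 with 10 to 14 and the 50 with 15 or more had medians of -0.07, -0.03, -0.10 and -0.18. Both EpoR-null embryos exceeded every control in 10 members (23.8%) of the group with fewest fingers, beside 22.6% of genes with the same minimum, and in 0 of the group with most. Median transcript length in the 4 groups was 4114, 3187, 3598 and 4282 bases, and median G and C content 48.7%, 47.8%, 43.6% and 43.7%; their part in these values was not tested.

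**Figure D3:**
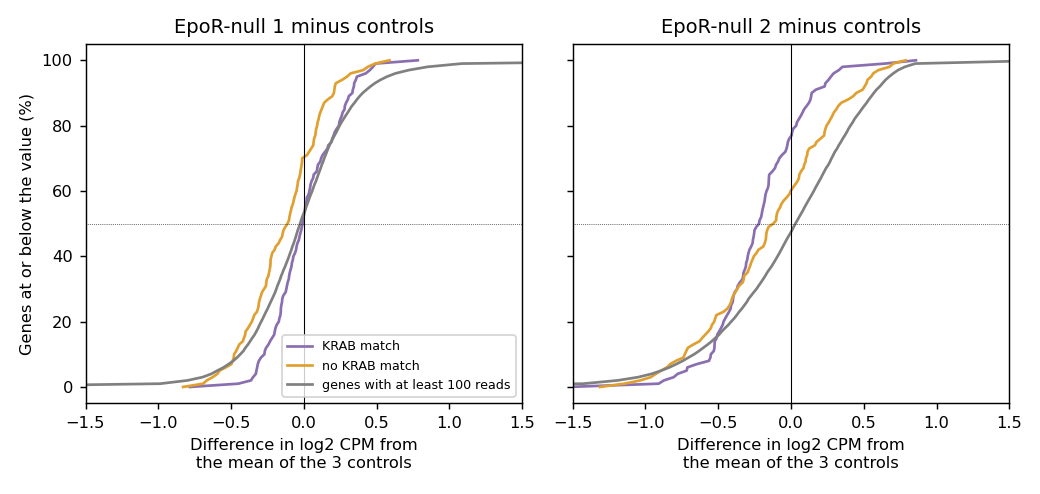
Cumulative share of genes (%) by the difference in log2 CPM between each EpoR-null embryo and the mean of the 3 controls, for members with (purple) and without (orange) a KRAB match and for the 9949 genes with at least 100 reads (grey). The purple curve crosses 50% at -0.01 in EpoR-null 1 and at -0.22 in EpoR-null 2, and the orange curve at -0.11 and -0.12.

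Each on its own, EpoR-null 1 lay below every control in 114 members (44.7%) and above in 65 (25.5%), and EpoR-null 2 below in 145 (56.9%) and above in 64 (25.1%). Genes with the same minimum had 41.9% and 35.7% in EpoR-null 1 and 40.2% and 44.9% in EpoR-null 2. The null embryos differed by more than 0.5 in log2 CPM in 55 members, with EpoR-null 2 the lower in 41 and the higher in 14 (21.6%, 16.1% and 5.49%, beside 25.7%, 13.4% and 12.4% of genes with the same minimum). The widest gap was that of Zfp811, a KRAB member, with 28.4, 24.3 and 35.8 CPM in controls, 30.9 CPM in EpoR-null 1 and 10.1 CPM in EpoR-null 2. Zfp711, an X-linked gene whose human counterpart is mutated in intellectual disability, had 22.6, 17.1 and 21.7 CPM in controls and 27.2 and 11.3 CPM in EpoR-null. Zfp810 (21.2 and 8.94 CPM in EpoR-null), Zfp9 (13.3 and 6.58 CPM) and Zfp827 (22.3 and 11.01 CPM) showed the same order, and in none of the 5 did both null embryos leave the range of the controls on the same side. All 5 differences between groups failed the test (FDR 0.622 to 0.954).

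Of 17 listed symbols with a role in neural development, 15 were members. Zfp191 was also listed under its newer symbol, Zfp24. Of the 15, 2 were called lower (13.3%, beside 4.45% of genes with the same minimum). Both have transcripts over 6000 bases, a length at which 21.2% of other genes with that minimum were called lower. The part of length in the list's share was not tested. A log2 fold change under 0 was found in 14 of the 15, as in 64.3% of the members and 46.5% of genes with the same minimum. The list had a median log2 fold change of -0.25, or -0.13 under the length and GC offsets, and a median transcript length of 4944 bases. Zfp568, a KRAB protein needed for morphogenesis of the early embryo and for silencing of a placental Igf2 transcript, had 133, 135 and 131 CPM in controls and 77.3 and 94.97 CPM in EpoR-null (-0.63, SE 0.15, FDR 0.00196 by edgeR's exact test). Zfp407, whose human counterpart has been linked to intellectual disability, had 31.8, 31.4 and 31.2 CPM in controls and 20.9 and 19.0 CPM in EpoR-null (-0.66, SE 0.18, FDR 0.0102). Both fell in both null embryos with no overlap, which a call favours, and both have long transcripts (6867 and 7909 bases).

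Zfp292 and Zfp462 of this list had larger log2 fold changes and did not pass. Zfp292 had 99.96, 77.0 and 103 CPM in controls and 71.5 and 37.2 CPM in EpoR-null (-0.78, SE 0.31, FDR 0.131). Zfp462, which restrains neural genes in embryonic stem cells, had 202, 176 and 218 CPM in controls and 149.6 and 88.5 CPM in EpoR-null (-0.74, SE 0.26, FDR 0.0687). Zfp238 (now Zbtb18), a repressor in differentiating cortical neurons, had 187, 157 and 217 CPM in controls, 180.2 CPM in EpoR-null 1 and 96.8 CPM in EpoR-null 2 (-0.43, SE 0.31, FDR 0.473). Zfp644, a partner of the H3K9 methyltransferases G9a and GLP, was at -0.45 (SE 0.20), with both null embryos below the controls. Zfp703, a repressor of the NET family, was the member of the list with a positive value, at 46.2, 55.5 and 38.7 CPM in controls and 58.1 and 68.5 CPM in EpoR-null (0.43, SE 0.21, FDR 0.219). The remaining members of the list, Zfp423 among them (-0.21, SE 0.13), lay between -0.36 and -0.07.

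All 6 listed genes of imprint and retroelement silencing were members, and Zfp568 was the one called. Zfp57, which keeps methylation at imprinted regions, was at 35.6, 31.9 and 30.5 CPM in controls and 46.1 and 30.4 CPM in EpoR-null, and Zfp445, which acts on imprints beside it, was at 185.2, 158 and 188 CPM in controls and 146 and 107 CPM in EpoR-null (-0.48, SE 0.19, FDR 0.124). Zfp57 overlapped the controls, whereas both null embryos were below them in Zfp445. Zfp809, which silences murine leukaemia proviruses, was at -0.42 (SE 0.30), Zfp932 at 0.02 (SE 0.18) and Zfp708 at -0.18 (SE 0.29).

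Of 8 listed genes of pluripotent cells 5 were members, all under 0 with 0 called. Zfp281 had 80.1, 79.6 and 89.0 CPM in controls and 66.4 and 55.7 CPM in EpoR-null (-0.44, SE 0.16, FDR 0.0638), and Zfp217, found with LSD1 and CoREST, was at -0.34 (SE 0.15). The 3 listed partners of the chromatin reader ZMYND8 each had both null embryos below every control, beside 25.0% of genes with the same minimum and 64.8% of other genes over 6000 bases, and none was called. Zfp687, the closest to the threshold, had 110.4, 109.3 and 109.1 CPM in controls and 78.4 and 87.6 CPM in EpoR-null (-0.40, SE 0.13, FDR 0.0406, p = 0.00268 by edgeR's exact test), and Zfp532 and Zfp592, with transcripts of 6708 and 7297 bases, were at -0.38 (SE 0.14) and -0.19 (SE 0.15). Zfp687 has a transcript of 5208 bases, and of other genes between 4000 and 6000 bases 38.7% had both null embryos below every control. Under the length and GC offsets Zfp687 was at -0.28, Zfp532 was at -0.07 and Zfp592 turned to 0.15.

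The list of RNA, ribosome and ubiquitin factors, of which 12 of 14 were members, had a median of 0.01 and 1 lower call, Zfp106. Zfp622, a factor of large ribosomal subunit maturation, had 35.9, 37.9 and 33.7 CPM in controls and 38.2 and 50.3 CPM in EpoR-null (0.30, SE 0.20), and Zfp330 had 56.9, 54.6 and 58.6 CPM in controls and 60.6 and 66.1 CPM in EpoR-null (0.16, SE 0.14). Both exceeded every control in both null embryos, and neither passed the test. Zfp598, a ubiquitin ligase for collided ribosomes, was at -0.13 (SE 0.21) and Zfp451, a SUMO ligase with a transcript of 11876 bases, at -0.24 (SE 0.16), which turned to 0.39 under the length and GC offsets, not called.

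**Figure D4:**
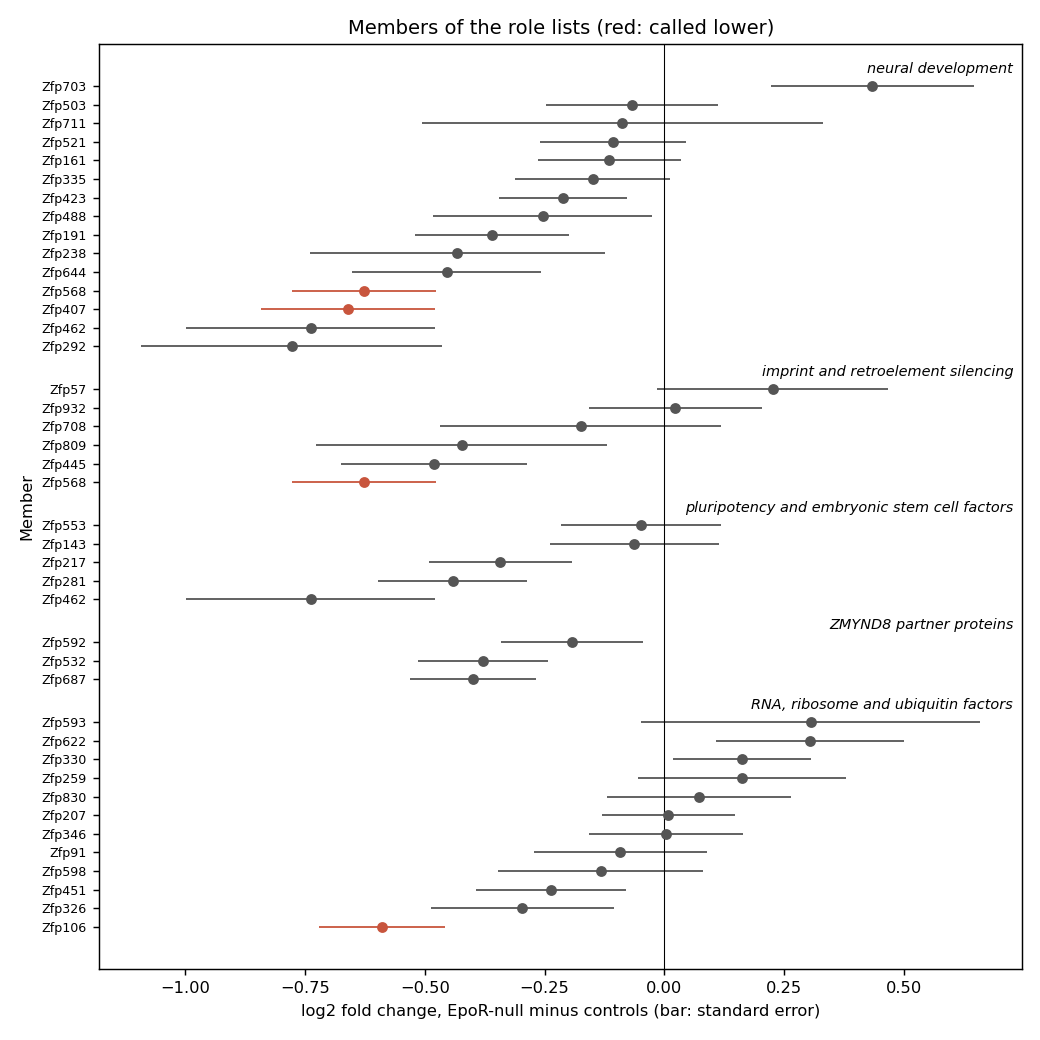
Log2 fold change (EpoR-null minus controls) with its standard error for every member of the 5 role lists, red where called lower. In neural development 14 of 15 points lie left of 0, while the RNA, ribosome and ubiquitin factors straddle it.

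Genes through which KRAB proteins act were read beside the members. Of 23 listed corepressor genes 22 were found in the tables, 2 were called lower and 0 higher (9.09% lower, beside 4.45% of genes with the same minimum), with both EpoR-null embryos below every control in 13 (59.1%, beside 25.0%). The median log2 fold change was -0.29, or -0.16 under the length and GC offsets. Of other genes over 6000 bases, 21.2% were called lower and 64.8% had both EpoR-null embryos below. Up to 6000 bases these shares were 1.21% and 17.3%. Transcript lengths of the corepressors are not given here, and the part of length in their shares was not tested. Atf7ip, the partner that stabilizes SETDB1, had 85.6, 83.1 and 78.9 CPM in controls and 51.4 and 40.9 CPM in EpoR-null (-0.84, SE 0.16, FDR 8.88e-05 by edgeR's exact test). Chd3, a remodeller of the NuRD complex, had 217, 183 and 252 CPM in controls and 128 and 92.0 CPM in EpoR-null (-0.98, SE 0.23, FDR 0.00152). Trim28 itself was at 1181, 1354 and 1189 CPM in controls and at 1108 and 1721 CPM in EpoR-null (0.19, SE 0.23, FDR 0.693), so that the null embryos lay on either side of the controls. The quasi-likelihood F-test called 0 of the 22 (10 lower at an unadjusted p under 0.05), and so did the likelihood-ratio test with the length and GC offsets (4 lower). The exact test called 1 of the 22 lower without wild type 1, a fit in which it called 0.881% of all genes lower.

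Members lay close together in the genome. With no other protein-coding gene of GENCODE M21 between them, 98 of 253 placed members formed 37 runs. The longest run held 9 members (Zfp84, Zfp30, Zfp790, Zfp940, Zfp420, Zfp27, Zfp383, Zfp74 and Zfp568), 7 with a KRAB match, and its median log2 fold change was -0.10 with values from -0.63 to 0.17. Only Zfp568, whose transcript is the longest of the run, was called in it. A run of 5 (Zfp282, Zfp212, Zfp956, Zfp777 and Zfp746) stayed between -0.03 and 0.08, and another of 5, all with a KRAB match (Zfp560, Zfp26, Zfp426, Zfp266 and Zfp846), had a median of -0.32 with values from -0.51 to 0.31. A run of 4 that holds Zfp871 (with Zfp811, Zfp799 and Zfp870) had a median of -0.37. Reads that fit more than 1 place were not counted, so values of neighbours with near-identical stretches are uncertain.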

How the data were processed

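Polyadenylated RNA of 5 mouse neural tubes was sequenced, and the authors deposited raw, not normalized, read counts per gene, with a table for each sample. Per the labels, reads were trimmed with Trimmomatic 0.32, aligned to mm9 with TopHat2 2.1.0 and counted with HTSeq 0.6.1, while the methods of the study name hg19 for RNA-seq. HTSeq drops reads with several alignments, so near-identical zinc finger genes are undercounted; 13.52 to 15.96 such alignments were set aside per 100 reads on genes. Its summary lines (no gene for 8.115% to 11.03% of unique reads, several genes for 1.845% to 2.305%) were not used as genes.

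The comparison of EpoR-null with the controls followed the study: TMM and exactTest of edgeR 4.0.16 (R 4.3.3) with dispersions per gene (tagwise) and FDR by Benjamini-Hochberg. It was run on the 12703 genes whose CPM exceeded 1 in 2 or more samples, a filter set here. Standard errors came from the tagwise dispersions. The exact test, the likelihood-ratio test with and without offsets, the quasi-likelihood F-test with and without the block, and DESeq2 were tested on simulated counts. The other fits were not. The members, gene lists and tests were chosen with earlier results of these data known. Named are the called members, the 5 most abundant, the 5 with the widest gap between null embryos, 3 on either side of the read minimum, members of the role lists and called corepressors; Zfp146, Zfp526, Zfp609, Zfp580, Zfp618, Zfp109, Trim28 and genes of named runs or promoters were added after their values were seen. Transcript lengths, fingers, KRAB matches and positions came from GENCODE M21 (GRCm38), where all 255 members were found, 10 under a newer symbol. Promoters came from RefSeq. No pair of samples agreed within sampling noise (lowest chi-square per degree of freedom 13.29).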

Additional observations from a re-analysis of the deposited data

How the results depend on the processing

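The count of members called lower (12 by the exact test) was 0 with the quasi-likelihood F-test, whether the heterozygote was pooled or its own group (28 at an unadjusted p under 0.05 in the latter), 20 with DESeq2, 2 with length and GC offsets, 7 with embryo sex as a term (a fit chosen after seeing the data) and 0 to 31 when samples were left out one at a time; the count of members called higher was 0 to 2 without single samples and 0 otherwise. A replicate block on the number in the labels raised the count of the quasi-likelihood F-test from 0 to 8 members called lower (2.09% of all genes), and it was 0 (12 at an unadjusted p under 0.05) with the offsets as well. The labels do not say what the numbers share; the replicate 1 minus 2 differences in log2 CPM of wild type and EpoR-null correlated at 0.468 over genes tested and 0.694 over members, a description over 2 pairs. The median log2 fold change of the members was -0.14 with library size only, -0.12 with no filter, -0.0442 with offsets and -0.183 to -0.0690 without single samples, and kept its sign in every fit run. Members with both EpoR-null embryos below every control (73) numbered 61 with offsets; without single samples, which can only keep or raise the count at a fixed scaling, they numbered 78 to 146. Corepressors called lower (2) numbered 0 with the quasi-likelihood F-test, with the heterozygote pooled or apart, 1 with that test and the block, 0 with offsets by the likelihood-ratio test or by the quasi-likelihood F-test with the block, 7 with DESeq2, 4 at FDR < 0.05 alone and 1 to 6 without single samples. Over all genes tested, DESeq2 called 5.93% lower, and the fit with embryo sex as a term called 3.55% lower. Without single samples the share over all genes moved too, as given above, and at FDR < 0.05 alone it was not counted. The part of transcript length in the corepressor counts was not tested in any of these fits. Zfp318 turned to 0.0652 with offsets and 0.0207 with offsets and block, as did, among members not called, Zfp592 (0.146 and 0.0874) and Zfp451 (0.393 and 0.314). Zfp711, not called either, turned to 0.0223 with offsets and 0.415 without EpoR-null 2. The cause of these shifts was not tested. With 19316126 reads in the smallest sample, the median standard error of the members was 0.23 in log2 units. Differences of this size or less in a typical member were not detectable at this depth and spread, and larger ones could be missed too. By the exact test the smallest called change was -0.49, and Zfp526 at -0.91 (SE 0.28) was not called.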
